A study of Rattus norvegicus with 11 samples.

Results

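The 9 genes described here are markers and transmitter genes of the enteric nervous system, and were taken as the rows of the read count and FPKM tables that carry the symbols Elavl4, Uchl1, Snap25, Vip, Tac1, Nos1, Gfap, S100b and Sox10. No symbol was absent, so the 9 genes stand among 24481 genes with reads and 24205 genes with FPKM. Elavl4, Uchl1, Snap25, Vip, Tac1 and Nos1 are neuronal genes, and Gfap, S100b and Sox10 are glial genes. FPKM is a read density scaled for the length of a gene and the size of a library, so that the levels of different genes can be set side by side.

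The enteric nervous system lies in the gut wall as the myenteric plexus between the muscle layers and the submucosal plexus beneath the mucosa. Its excitatory motor neurons release acetylcholine and tachykinins such as substance P, and its inhibitory motor neurons release nitric oxide and vasoactive intestinal peptide (VIP), which also acts as a secretomotor transmitter on the epithelium. Enteric glia surround the neurons and reach into the mucosa, and Gfap is widely used as a marker of reactive glia.

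Ileum of SD rats (6 to 8 weeks of age) was sequenced in 3 groups, of which the control group held 3 libraries, the SAP group 4 and the JZL184 group 4. Severe acute pancreatitis (SAP) was induced by retrograde injection of 3% sodium taurocholate, a bile salt, into the pancreatic duct under anesthesia. At 24 h after surgery the control and SAP groups received the saline, ethanol and Tween-80 vehicle intraperitoneally and the JZL184 group received JZL184 at 10 mg/kg, an inhibitor of monoacylglycerol lipase (MAGL), the enzyme that degrades the endocannabinoid 2-arachidonoylglycerol. All rats were killed 24 h after that injection. The methods place the division into the 3 groups after the surgery, and describe no separate operation for the control rats. The labels name a control plasmid for the control libraries and oil for the SAP libraries where the study's methods describe vehicle. No group received JZL184 without pancreatitis, so the drug was seen only on top of the disease. Because the JZL184 and SAP groups are each compared with the same control libraries, the values of those comparisons are not independent of each other.

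Between 26341299 and 33847135 reads per library were counted on genes. Control libraries 1 and 2 differed by a chi-square per gene of 2.81, against 77.48 to 563.03 in the 14 other pairs of libraries of a group. They were joined to 1 sample by summing their reads and averaging their FPKM, which left n = 2 in the control group. Where a fit or test kept them separate, near copies counted as 2 samples, so its p-values against control can be too small. SAP libraries 1 and 2 stood apart from SAP libraries 3 and 4: against control, edgeR called 5859 genes with the first pair alone and 74 with the second pair alone. For members whose value rests on either pair, the value without it is given as well. SAP library 2 had 20 reads on 3 Y-linked genes, where the other libraries had 1222 to 4665, although the study's methods describe male rats. The labels call the material intestinal epithelial cell, whereas the source field calls it ileum tissue. Markers of non-epithelial cells were present: the summed FPKM of 10 smooth muscle genes was between 387 and 2158 in every library, and the neuronal intermediate filament gene Prph reached 38.0. Elavl4, whose product is the HuD antigen of neurons, stayed at or below 0.39. In whole tissue, fewer cells of a type and less RNA per cell cannot be told apart.

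**Figure D1:**
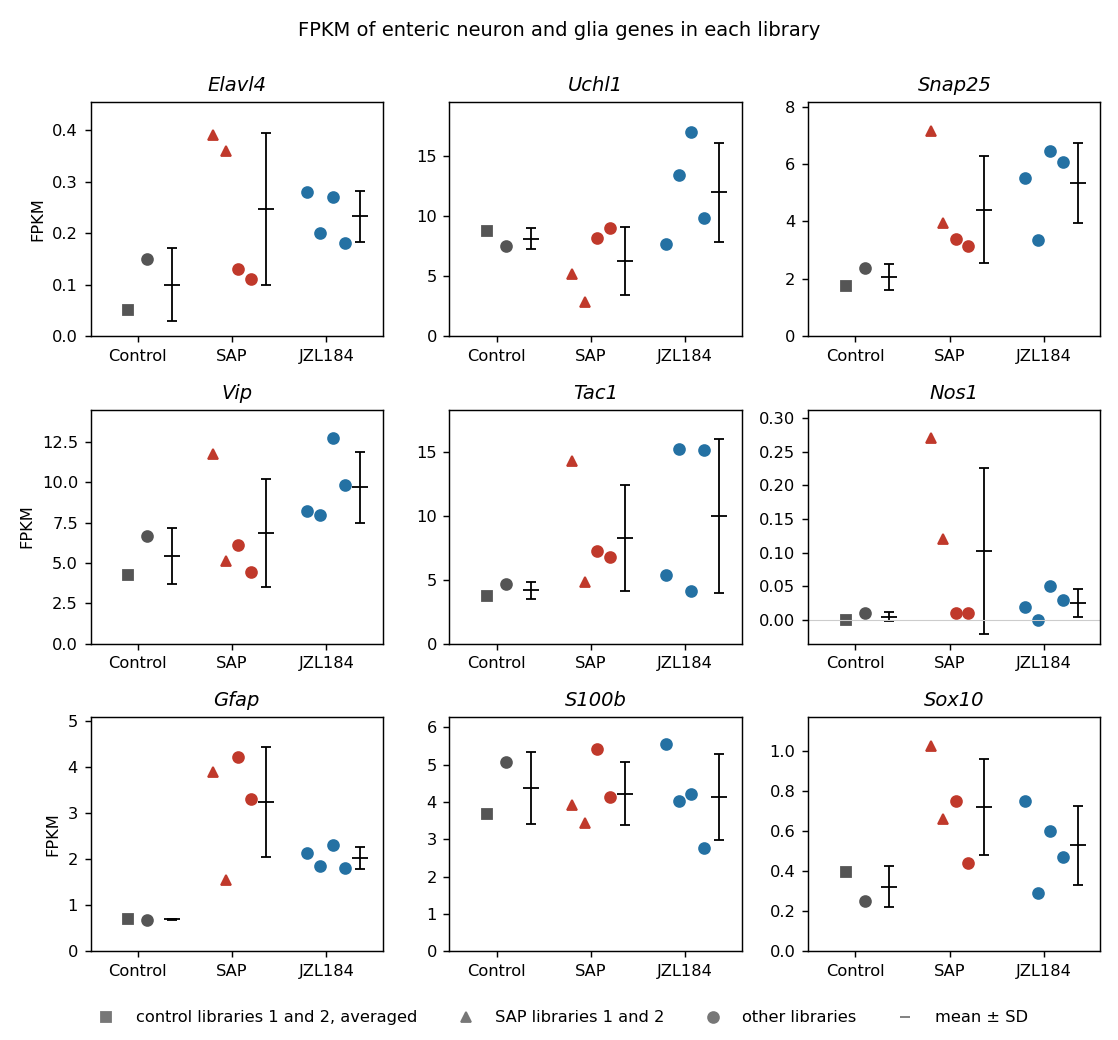
FPKM of the 9 enteric neuron and glia genes in each sample, with 1 panel per gene and its own linear vertical axis that includes 0. The square is the joined control sample, triangles are SAP libraries 1 and 2, circles are the other libraries, and bars give the group mean ± SD (n = 2, 4 and 4). All Gfap points of SAP (1.54 to 4.22) and JZL184 rats (1.80 to 2.31) lie above the control points, while the S100b points of the 3 groups lie over each other.

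Snap25 encodes a membrane protein of the SNARE complex that drives synaptic vesicle fusion. Its FPKM was 1.75 in the joined control sample and 2.38 in control library 3, 7.16, 3.93, 3.40 and 3.15 in SAP libraries 1 to 4, and 5.52, 3.34, 6.47 and 6.07 in JZL184 libraries 1 to 4. Every SAP and JZL184 library thus lay above both control samples, and the SAP and JZL184 libraries overlapped. Compared with the control group (2.07 ± 0.45, SD, n = 2), the SAP mean was 4.41 ± 1.86 (n = 4) and the JZL184 mean 5.35 ± 1.40 (n = 4). The log2 fold change was 0.91 (SE 0.41) in SAP against control with an adjusted p of 0.459 in edgeR's quasi-likelihood test, and 1.33 (SE 0.34) in JZL184 against control with an adjusted p of 0.0722. Without SAP libraries 1 and 2 the value in SAP against control was 0.61 (SE 0.31, adjusted p = 0.739, edgeR). Without SAP libraries 3 and 4 it was 1.145 (adjusted p = 0.0337, edgeR), in a fit that called 37.2% of the genes tested. JZL184 against SAP gave 0.45 (SE 0.31) with an edgeR adjusted p of 0.401. Over all alternative fits the value in JZL184 against control was between 1.17 and 1.49. Its adjusted p was 0.000131 in DESeq2 with separate control libraries, which counts the near copies as 2 samples. In edgeR with all 3 groups in 1 fit it was 0.0875. Snap25 was the only neuronal member with more reads in each JZL184 and each SAP library than the 111 to 174 reads of the control libraries.

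Uchl1 encodes PGP9.5, a ubiquitin hydrolase abundant in neurons and also made by endocrine cells. Its FPKM was 8.75 and 7.47 in the control samples, 5.13, 2.80, 8.16 and 8.97 in SAP libraries 1 to 4, and 7.66, 13.42, 17.00 and 9.78 in JZL184 libraries 1 to 4. SAP libraries 1 and 2 lay below the control samples and SAP libraries 3 and 4 near or above them, and JZL184 library 1 lay within the range of the control and SAP values. JZL184 against SAP gave a log2 fold change of 1.06 (SE 0.45) with an edgeR adjusted p of 0.211 (unadjusted p = 0.0387). With SAP libraries 3 and 4 left out the value was 1.87 and passed the threshold (adjusted p = 0.0316, edgeR), in a fit that called 18.1% of the genes tested. Over all alternatives the value lay between 0.54 and 1.87 (adjusted p from 0.0316 to 0.491). SAP against control gave -0.51 (SE 0.52, adjusted p = 0.610, edgeR), and 0.01 with SAP libraries 1 and 2 left out, so that its direction rested on those libraries.

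Elavl4, which encodes a neuronal RNA-binding protein, was close to the lower end of detection. It had 5, 9 and 22 reads in the control libraries, 66, 53, 18 and 17 in the SAP libraries and 44, 27, 37 and 23 in the JZL184 libraries. In FPKM these were 0.05 and 0.15 in the control samples, 0.39, 0.36, 0.13 and 0.11 in SAP libraries 1 to 4 and 0.28, 0.20, 0.27 and 0.18 in JZL184 libraries 1 to 4. The JZL184 libraries all lay above control, and SAP libraries 3 and 4 lay within the control range while SAP libraries 1 and 2 were the highest of all. The log2 fold change was 1.13 (SE 0.70) in SAP against control and 1.19 (SE 0.57) in JZL184 against control, with edgeR adjusted p of 0.468 and 0.222. Without SAP libraries 1 and 2 the value in SAP against control was 0.28 (SE 0.62, adjusted p = 0.978, edgeR). Without SAP libraries 3 and 4 it was 1.66 (adjusted p = 0.0405, edgeR), in a fit that called 37.2% of the genes tested. With offsets for gene length it was 0.64 (SE 0.56, adjusted p = 0.568, edgeR). JZL184 against SAP gave 0.10 (SE 0.44) with an edgeR adjusted p of 0.907, and 0.48 (SE 0.37, adjusted p = 0.438, edgeR) with these offsets.

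Vip encodes the inhibitory and secretomotor peptide VIP. Its FPKM was 4.235 and 6.68 in the control samples, 11.75, 5.10, 6.10 and 4.42 in SAP libraries 1 to 4, and 8.22, 7.96, 12.74 and 9.86 in JZL184 libraries 1 to 4. Only SAP library 1 exceeded the control samples within the SAP group, whereas all 4 JZL184 libraries did. The group means were 5.46 ± 1.73, 6.84 ± 3.34 and 9.70 ± 2.20 (SD, n = 2, 4 and 4). JZL184 against control gave a log2 fold change of 0.80 (SE 0.32) with an adjusted p of 0.160 in edgeR (unadjusted p = 0.0348), and JZL184 against SAP gave 0.68 (SE 0.32) with an adjusted p of 0.252. SAP against control gave 0.15 (SE 0.44, adjusted p = 0.862, edgeR) and -0.19 without SAP library 1.

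Tac1 encodes the precursor of substance P and neurokinin A, the excitatory counterpart to VIP in motor neurons. Its FPKM was 3.725 and 4.66 in the control samples, 14.34, 4.85, 7.26 and 6.76 in SAP libraries 1 to 4, and 5.40, 15.28, 4.12 and 15.15 in JZL184 libraries 1 to 4. The JZL184 libraries fell into a low pair (libraries 1 and 3) next to the control values and a high pair (libraries 2 and 4), whose FPKM was similar to that of SAP library 1. The log2 fold changes against control were 0.81 (SE 0.46) for SAP and 1.28 (SE 0.64) for JZL184, with edgeR adjusted p of 0.461 and 0.243. JZL184 against SAP gave 0.50 (SE 0.52, adjusted p = 0.581, edgeR). With single libraries left out, the value of SAP against control lay between 0.47 (without SAP library 1) and 1.03, that of JZL184 against SAP between 0.145 (without JZL184 library 2) and 0.84, and that of JZL184 against control between 0.93 (without JZL184 library 2) and 1.55.

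Nos1 encodes the neuronal nitric oxide synthase of inhibitory motor neurons and was the lowest of the members. It had 0, 0 and 2 reads in the control libraries, 61, 25, 2 and 2 in the SAP libraries and 5, 0, 9 and 6 in the JZL184 libraries. SAP libraries 1 and 2 thus held nearly all of the 90 reads of the SAP group, and SAP libraries 3 and 4 had no more reads than control library 3. Per read counted, the rate in the SAP group was 31.4 times that in the control group (exact 95% interval 8.45 to 263) and in the JZL184 group 7.66 times (1.86 to 67.6). Without SAP libraries 1 and 2, a comparison chosen after seeing the data, the ratio of the SAP group was 2.92 (0.419 to 32.3). These intervals cover counting error only and leave out the spread between rats. SAP against control gave a log2 fold change of 4.33 (SE 1.80, unadjusted p = 0.0440, adjusted p = 0.459, edgeR), a value that depends on the prior count because the control counts were near 0. Nos1 did not pass the filter on low counts in either comparison of the JZL184 group.

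Promoter sequences of 7 of the 9 members (all but Sox10 and Snap25) were matched in RefSeq (build GRCr8), from 250 bases before to 50 bases after the start of each gene. The stretches of Vip and Nos1 are shown because both inhibitory transmitter genes carry letters of the cyclic AMP response element. The Vip stretch is on the + strand at chr1:44470370-44470449, from base -110 to base -31 relative to the start, and the Nos1 stretch is on the - strand at chr12:44371808-44371867, from base -30 to base 29. Capitals mark TGACG, TGACGTCA (which itself holds TGACG) and the TATA box letters TATAAA, read on both strands.
Vip: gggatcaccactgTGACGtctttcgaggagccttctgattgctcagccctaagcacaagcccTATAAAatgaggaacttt
Nos1: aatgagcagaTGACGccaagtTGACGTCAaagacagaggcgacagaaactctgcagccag
Among 27457 rat promoters of this length, TGACG was found in 23.0%, TGACGTCA in 2.0% and TATAAA in 15.3%. Of the 7 members, TGACG was found in Vip, Tac1 and Nos1, TGACGTCA in Nos1, and TATAAA in Uchl1 and Vip. Vip and Nos1 share letters but not levels: in FPKM, Nos1 was at or below 0.27 in all libraries while Vip was between 3.91 and 12.74.

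Gfap encodes the intermediate filament of glia. Its FPKM was 0.695 and 0.69 in the control samples, 3.89, 1.54, 4.22 and 3.31 in SAP libraries 1 to 4, and 2.14, 1.86, 2.31 and 1.80 in JZL184 libraries 1 to 4. All 8 SAP and JZL184 libraries lay above both control samples, and within the SAP group library 2 was the lowest. The 3 control libraries had 0.77, 0.62 and 0.69, with a mean of 0.693 ± 0.075 (SD over the 3), and the SAP and JZL184 means were 3.24 ± 1.19 and 2.03 ± 0.24 (SD, n = 4 and 4). SAP against control gave a log2 fold change of 2.08 (SE 0.51) with an unadjusted p of 0.00357 and an adjusted p of 0.459 in edgeR, and DESeq2 gave an adjusted p of 0.00884. The value held in both pairs of SAP libraries. It was 2.38 without libraries 1 and 2 (adjusted p = 0.00920, edgeR), in a fit that called 0.482% of the genes tested. It was 1.70 without libraries 3 and 4 (adjusted p = 0.0180, edgeR), in a fit that called 37.2%. JZL184 against control gave 1.52 (SE 0.32) with an edgeR adjusted p of 0.0526, and a DESeq2 adjusted p of 0.00277. Over all alternative fits, the fold change of Gfap against control lay between 1.495 and 2.38 for SAP and between 1.44 and 1.60 for JZL184. For SAP the adjusted p was 0.000108 in DESeq2 with separate control libraries and 0.731 in edgeR without SAP library 1. For JZL184 it was 0.00780 in edgeR with separate control libraries and 0.0855 in edgeR with all 3 groups in 1 fit. Fits with separate control libraries count the near copies as 2 samples. JZL184 against SAP gave -0.54 (SE 0.34, adjusted p = 0.369, edgeR). SAP library 2 lay below all 4 JZL184 libraries and the other SAP libraries lay above them.

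S100b encodes a calcium-binding protein of glia, and its values in the 3 groups overlapped. Its FPKM was 3.685 and 5.06 in the control samples, between 3.43 and 5.43 in the SAP libraries (median 4.02) and between 2.76 and 5.56 in the JZL184 libraries (median 4.12). Log2 fold changes were -0.20 (SE 0.34) in SAP against control, 0.11 (SE 0.30) in JZL184 against SAP and -0.11 (SE 0.34) in JZL184 against control. The adjusted p in edgeR lay between 0.766 and 0.858. The sign turned in both JZL184 comparisons when single libraries were left out (-0.008 without SAP library 2 and 0.06 without control library 3, for example), and in SAP against control without SAP libraries 1 and 2 (0.07). Sox10, which encodes the transcription factor of glia and their neural crest precursors, had an FPKM of 0.395 and 0.25 in the control samples, 1.02, 0.66, 0.75 and 0.44 in SAP libraries 1 to 4 and 0.75, 0.29, 0.60 and 0.47 in JZL184 libraries 1 to 4. The SAP libraries lay above the control samples, with library 4 the closest and below control library 1 taken alone (0.50), so that the separation rests on joining control libraries 1 and 2. JZL184 library 2 lay within the control range. The log2 fold changes of Sox10 were 0.95 (SE 0.46) in SAP against control, -0.30 (SE 0.37) in JZL184 against SAP and 0.63 (SE 0.50) in JZL184 against control, with edgeR adjusted p of 0.459, 0.650 and 0.444.

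**Figure D2:**
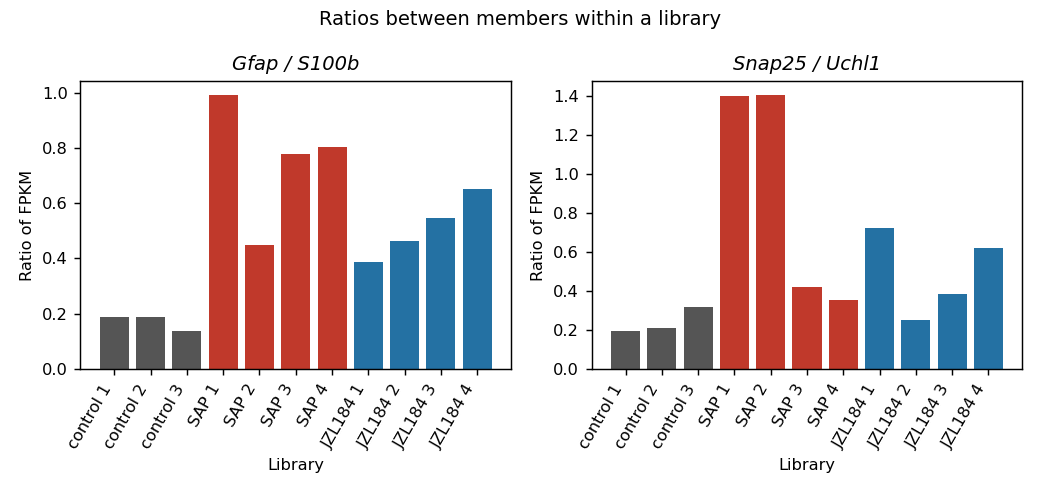
Ratio of Gfap to S100b FPKM and of Snap25 to Uchl1 FPKM in each of the 11 libraries, with 1 bar per library from a linear axis that starts at 0, grey for control, red for SAP and blue for JZL184. The ratio of Gfap to S100b is between 0.136 and 0.189 in the control libraries, between 0.449 and 0.992 in the SAP libraries and between 0.385 and 0.652 in the JZL184 libraries.

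The ratio of Gfap to S100b, a measure within each library that does not depend on its depth, was chosen after the values were seen and has no test. It was 0.189, 0.188 and 0.136 in control libraries 1 to 3, 0.992, 0.449, 0.777 and 0.803 in the SAP libraries and 0.385, 0.463, 0.547 and 0.652 in the JZL184 libraries, so that no SAP or JZL184 library reached down to the control values. The ratio of Snap25 to Uchl1, likewise chosen afterwards, was 0.192 to 0.319 in the control libraries, 1.396 and 1.404 in SAP libraries 1 and 2, and 0.249 to 0.721 in the other SAP and JZL184 libraries.

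**Figure D3:**
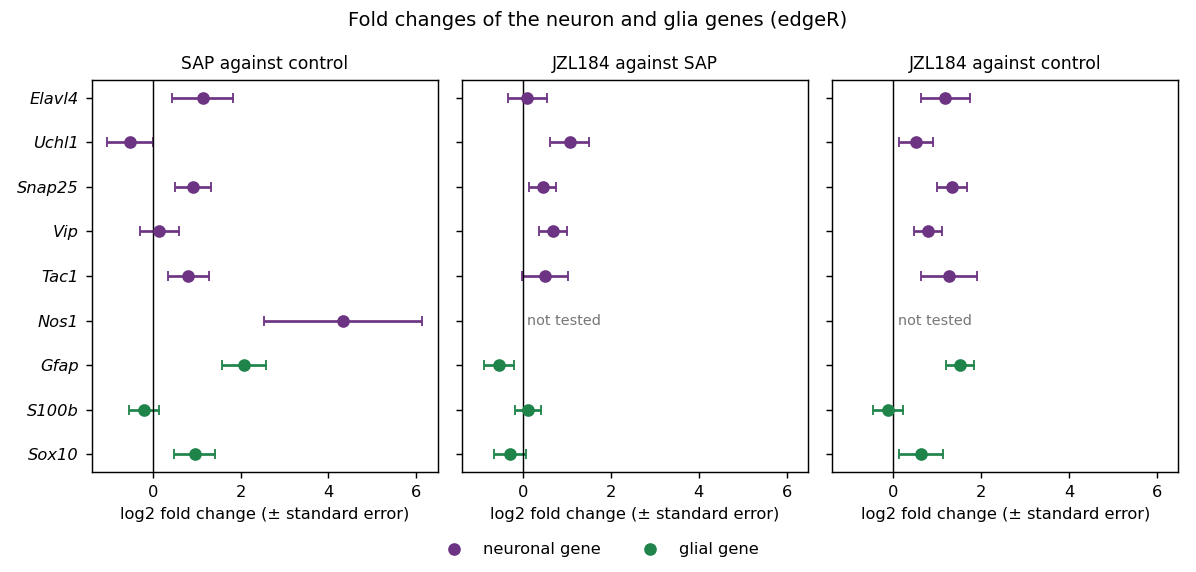
Log2 fold change with its SE for each member in SAP against control, JZL184 against SAP and JZL184 against control, from edgeR, with 0 marked by a line, neuronal genes in purple and glial genes in green. The largest values with an SE below 1 are those of Gfap against control (2.08 and 1.52), and Nos1 is shown in SAP against control alone (4.33, SE 1.80).

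Compared with the control group, the SAP group had 0 of the 9 members called by edgeR, which required an adjusted p below 0.05 together with a change of over 2-fold (or to below 0.5), where 0.0% of all 16029 genes tested were called. At an unadjusted p below 0.05 there were 2 members (Gfap and Nos1), against 9.09% of all genes. DESeq2 called 1 member (Gfap), against 1.14% of all genes, and limma-voom 0 against 0.0873%. With the control libraries kept separate, edgeR called 0 members (0.213% of all genes) and DESeq2 called 2, Gfap and Nos1 (8.91%). In CPM, read counts scaled for library size and TMM factors, 3 of the 9 members (Snap25, Gfap and Sox10) were higher in every SAP library than in both control samples, against 9.88% of all genes. On the FPKM scale Tac1 was also above control in every SAP library. The fold change was positive in 7 of 9 members against 53.2% of all genes, and the median log2 fold change was 0.91 against 0.06 over all genes. The pairs of SAP libraries gave different counts: SAP libraries 1 and 2 alone gave 5 called members (Elavl4, Snap25, Nos1 and Gfap higher, Uchl1 lower) in a fit that called 37.2% of all genes, and SAP libraries 3 and 4 alone gave 1 (Gfap) in a fit that called 0.482%. In two-sided exact permutation tests on log2(FPKM + 1), Gfap had p = 0.0667, the smallest that 4 against 2 samples allow. The other members had exact permutation p of 0.133 (Snap25 and Sox10) to 0.933 (S100b).

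Compared with the SAP group, the JZL184 group had 0 of the 9 members called by edgeR, of which 8 were tested, where 0.0% of the 15308 genes tested were called. DESeq2 and limma-voom also called 0 members, against 6.98% and 4.57% of all genes. Uchl1 was the 1 member at an unadjusted p below 0.05 (21.3% of all genes), and 0 members were higher in every JZL184 library than in every SAP library (6.01% of all genes). The fold change was positive in all 5 neuronal members tested and in 1 of the 3 glial members, against 47.4% of all genes. The median log2 fold change was 0.50 over these 5 neuronal members and -0.30 over the glial members, against -0.05 over all genes. Nos1, which the filter removed, had a negative value in DESeq2 (-1.76, SE 1.06, adjusted p = 0.304). Without SAP libraries 1 and 2 edgeR called 0 members (0.0% of all genes), and without SAP libraries 3 and 4 it called 1, Uchl1 (18.1%). The lowest two-sided exact permutation p were 0.0857 (Uchl1) and 0.143 (Vip and Gfap), where the smallest possible was 0.0286 for 4 against 4.

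Compared with the control group, the JZL184 group had 0 of the 9 members called by edgeR, of which 8 were tested, where 2.16% of all 15916 genes were called. At an unadjusted p below 0.05 there were 3 members (Gfap, Snap25 and Vip), against 26.3% of all genes. DESeq2 called 2 members, Gfap (adjusted p = 0.00277) and Snap25 (adjusted p = 0.0152), against 11.7% of all genes, and limma-voom called the same 2 (adjusted p = 0.0113 and 0.0161) against 18.3%. With separate control libraries edgeR called Gfap and Snap25 (18.1% of all genes), and DESeq2 called Tac1 as well (19.4%). Gfap passed the edgeR threshold in further fits with 1 change each: without JZL184 library 1 (adjusted p = 0.0298, with Snap25 at 0.0474, 12.0% of all genes called), without JZL184 library 3 (0.0472, 5.46%), without control library 1 (0.0494, 1.91%) and without the filter on low counts (0.0489, 3.93%). Higher in every JZL184 library than in both control samples were 4 members (Elavl4, Snap25, Vip and Gfap), against 18.0% of all genes, and each had an exact two-sided permutation p of 0.0667, the smallest possible. The fold change was positive in 7 of the 8 members tested against 54.0% of all genes, and the median log2 fold change was 0.99 against 0.08.

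Correlations between members ranged from -0.644 to 0.792. Over the 10 samples, the Pearson correlation of log2 CPM was highest between Snap25 and Vip (0.792), Elavl4 and Snap25 (0.735) and Elavl4 and Nos1 (0.733), and was 0.637 between Gfap and Sox10. It was 0.006 between Gfap and S100b, and -0.631 between Uchl1 and Nos1. The samples differ in group and cell makeup, so these values describe the samples as a whole. Among 11486 genes with a mean of at least 100 reads, those most like the mean of the scaled neuronal members were Adm (r = 0.938), Acsl4 (0.920), Clmp (0.919), Mapk8ip3 (0.918) and Senp6 (0.918). Those most like the glial members were Npr1 (0.911), Nol3 (0.839), Gas1 (0.830), Ccl7 (0.828) and Psmd5 (0.815). Without SAP libraries 1 and 2 (8 samples), Npr1 remained first for the glial members (0.934), and none of the 5 neuronal genes stayed among the first 5. On log2(FPKM + 1), Mapk8ip3 and Senp6 moved to ranks 8 and 28 for the neuronal members, and Nol3 and Ccl7 to ranks 13 and 25 for the glial members.

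**Figure D4:**
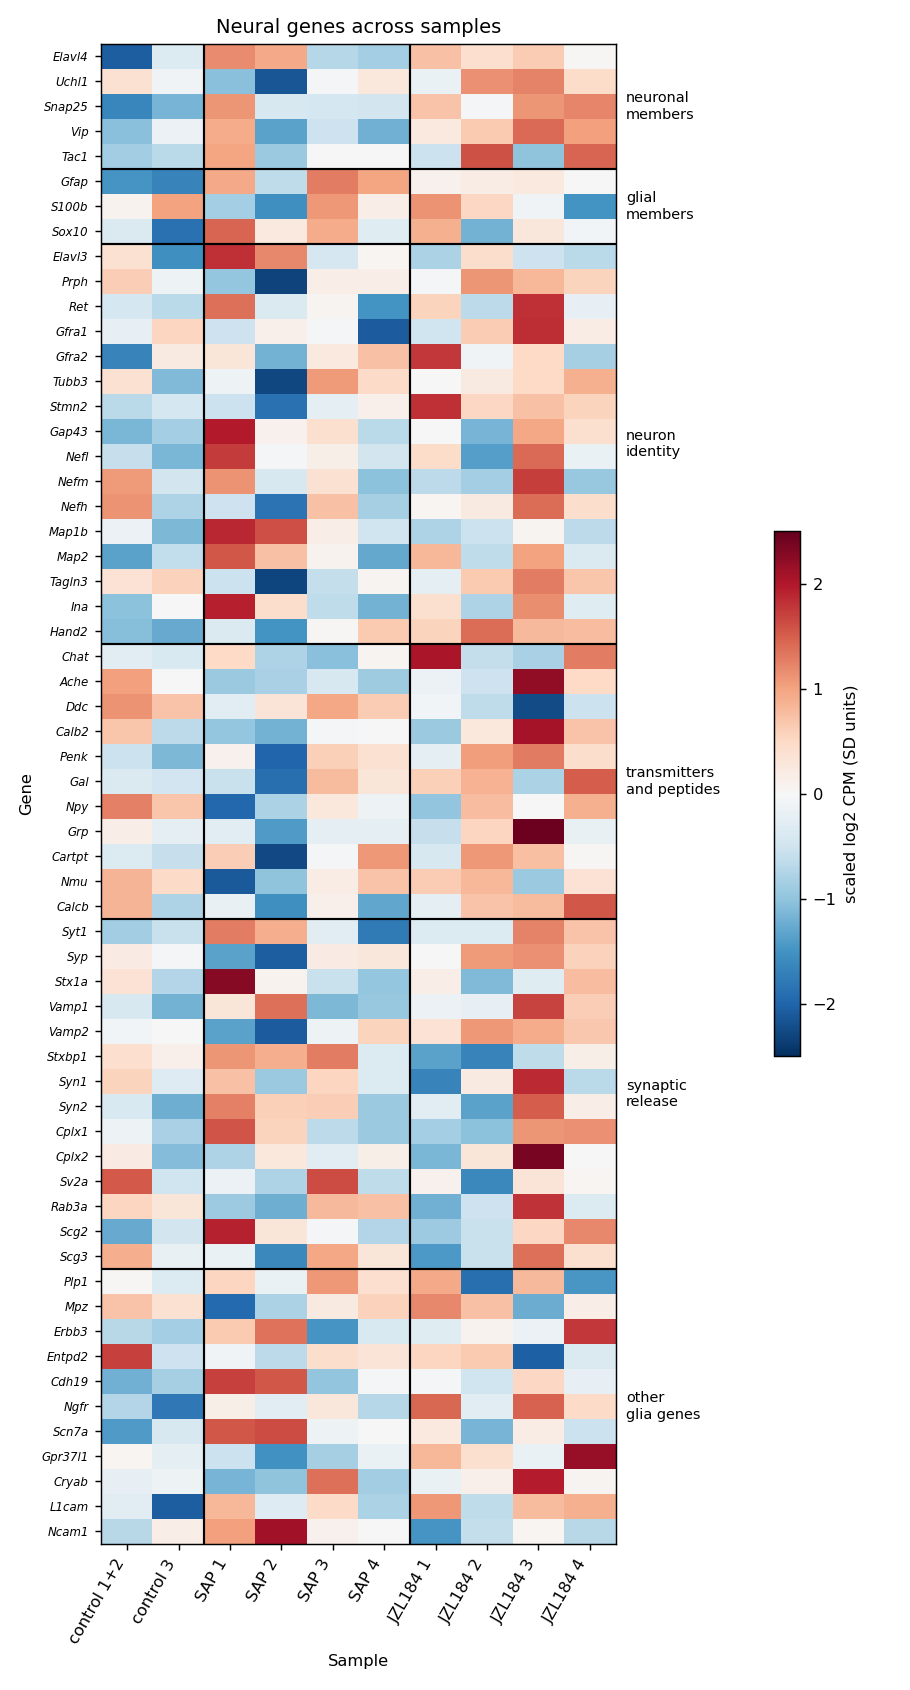
Heat map of 60 genes from the lists of neuron and glia genes with a mean of at least 20 reads, with genes in rows, the 10 samples in columns, and red for high and blue for low log2 CPM, scaled per gene. In the rows of Syp and Vamp2, SAP libraries 1 and 2 are the lowest samples, and in that of Gfap the control samples are.

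Other genes used as markers of neurons and glia were read from lists chosen for their known roles, and some of them are also expressed by other cells. Of 20 other neuronal identity genes, 18 were tested, and edgeR called 0 in SAP against control, 0 in JZL184 against SAP and 1 higher in JZL184 against control (2.16% of all genes). The called gene was Hand2, a transcription factor gene of enteric neurons that mesenchymal cells also express, which rose by a log2 fold change of 1.44 (SE 0.29, adjusted p = 0.0470, edgeR). Its FPKM was 13.93, 17.29 and 16.15 in the control libraries, 28.80, 17.26, 30.98 and 38.81 in the SAP libraries and 40.34, 49.67, 45.53 and 40.09 in the JZL184 libraries. In FPKM all JZL184 libraries lay above all others. In scaled log2 CPM the SAP and JZL184 libraries overlapped, with SAP library 4 (0.645) above JZL184 library 1 (0.55). Hand2 was called in 13 of 19 alternative fits and lost the call without JZL184 library 2 (adjusted p = 0.0940, edgeR), JZL184 library 4 (0.104), control library 1 (0.0549), control library 3 (0.210) or the joined control sample (0.529), and in the fit of all 3 groups (0.0805). In JZL184 against control, 17 of the 18 neuronal identity genes had a positive fold change with a median of 0.40, against 54.0% of all genes and a median of 0.08. Stmn2, a neuronal growth-associated gene, was at 4.63 to 9.06 FPKM in the JZL184 libraries and at most 4.44 in the others. In CPM, 1 of the 18 was higher in every JZL184 library than in every SAP library, against 6.01% of all genes. Against both control samples this held for 2 of the 18, against 18.0% of all genes. At an unadjusted p below 0.05 in that edgeR comparison, 2 were higher and 0 lower, against 26.3% of all genes in either direction.

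Among 18 other transmitter and peptide genes, edgeR called 0 in each of the 3 comparisons, and at an unadjusted p below 0.05 in JZL184 against control 2 were higher and 1 lower of 14 tested, against 26.3% of all genes in either direction. Penk, the enkephalin precursor gene, was at 6.66 to 9.70 FPKM in the control libraries and 13.69 to 43.29 in the JZL184 libraries (log2 fold change 1.72, SE 0.49, adjusted p = 0.0879, edgeR). Ddc, whose product makes dopamine and serotonin, was at 4.77 to 5.65 and at 0.72 to 3.05 (-1.50, SE 0.47, adjusted p = 0.102). Medians over the list were 0.11 in SAP against control, 0.56 in JZL184 against SAP and 0.61 in JZL184 against control. For the 17 synaptic release genes edgeR also called 0 in each comparison, with medians of 0.25, 0.05 and 0.54. Vamp2, the vesicle partner of Snap25, was at 37.72 to 45.11 FPKM in the control libraries, 12.25 to 66.28 in the SAP libraries and 62.74 to 93.46 in the JZL184 libraries, with 0.88 (SE 0.31, adjusted p = 0.124, edgeR) against control. For 17 other glial genes edgeR called 0 in each comparison, and the medians were 0.51, 0.17 and 0.69. Ngfr, the low-affinity neurotrophin receptor gene, was at 2.08 to 3.02 FPKM in the control libraries and 3.57 to 9.24 in the JZL184 libraries (1.35, SE 0.41, adjusted p = 0.0965, edgeR), and Mal, a myelin gene that epithelium also expresses, was at 0.26 to 0.52 and 0.04 to 0.13 (-2.12, SE 0.56, adjusted p = 0.0757).

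Receptors and effectors of VIP, substance P and nitric oxide gave 0 genes called by edgeR among 7 tested of 10 in each comparison, with medians of 0.13, -0.43 and 0.05. Vipr1, the VIP receptor gene of the epithelium, was at 39.87 to 40.80 FPKM in the control libraries, 37.61 to 64.09 in the SAP libraries and 48.25 to 112.88 in the JZL184 libraries (0.91 against control, SE 0.40, adjusted p = 0.188, edgeR). The subunit genes of the nitric oxide receptor guanylate cyclase, Gucy1a1 and Gucy1b1, had log2 fold changes of -1.09 and -1.36 in JZL184 against SAP (adjusted p = 0.169 and 0.185, edgeR), and were highest in SAP libraries 1 and 2. Of the genes around the drug's target, Mgll, which encodes MAGL, had an FPKM of 4.26 to 5.83 in the control libraries, 2.74 to 4.93 in the SAP libraries and 4.19, 2.42, 10.49 and 1.56 in JZL184 libraries 1 to 4, so that library 3 set the height of the JZL184 mean. The cannabinoid receptor gene Cnr1, made by enteric neurons, was at or below 0.03 in the control libraries, at 0.21, 0.15, 0.05 and 0.03 in SAP libraries 1 to 4 and at or below 0.06 in the JZL184 libraries. Cnr2 had mean FPKM of 0.30, 0.35 and 0.40 in the control, SAP and JZL184 groups. None of these 3 genes was called by edgeR in any of the comparisons.

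**Figure D5:**
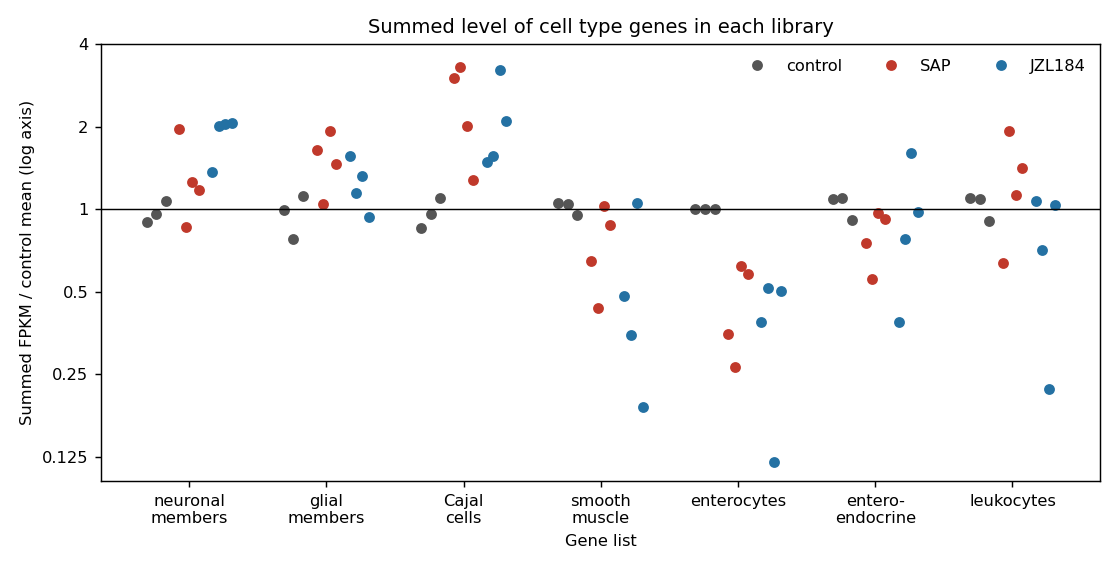
Summed FPKM of the marker lists in each of the 11 libraries, divided by the mean of the control libraries, by list on a log axis, with grey, red and blue points for control, SAP and JZL184 libraries. The neuronal members lie between 1.36 and 2.06 in the JZL184 libraries, and the enterocyte list lies between 0.12 and 0.62 in the SAP and JZL184 libraries.

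Among the lists of other cell types, the sums of enterocyte and Cajal cell genes did not overlap between the control libraries and the others. Those of smooth muscle, enteroendocrine, leukocyte and fat genes did. The exocrine pancreas sums nearly met, at 10.76 FPKM in SAP library 4 against 10.79 in control library 3. Cela1, which makes up nearly all of that sum, overlapped, at 10.73 in SAP library 4 against 10.69 in control library 3. The summed FPKM of 10 enterocyte genes was between 40610 and 40640 in the control libraries, between 10820 and 25120 in the SAP libraries and between 4861 and 20900 in the JZL184 libraries, a sum in which a few abundant genes such as Fabp6, Fabp2 and Krt20 weigh most. Gene by gene, the median log2 fold change of the 10 was -0.48 in SAP against control, 0.13 in JZL184 against SAP and -0.62 in JZL184 against control, and edgeR called 0 in each. The summed FPKM of the neuronal members was 17.92 to 21.35, 17.16 to 39.04 and 27.10 to 41.07 in the same groups, and that of the glial members 4.21 to 6.00, 5.63 to 10.40 and 5.03 to 8.45. JZL184 library 3 had the lowest enterocyte sum (4861) together with the highest sums of other neuronal identity genes (149), synaptic genes (162) and other glial genes (108). It also had the highest enteroendocrine sum (1592), and Vamp2 (93.46) and Cryab (77.81) weighed most in its synaptic and glial sums. SAP library 2 went the other way. Its enterocyte sum was the next lowest (10825), with the lowest sums of neuronal members (17.16), other neuronal identity genes (68.3) and synaptic genes (58.6). The part of the lower enterocyte signal in the higher shares of neuronal and glial genes was not tested. Of the muscle layers, between which the myenteric plexus lies, 0 of 10 smooth muscle genes had a positive fold change in either comparison of the JZL184 group, with a median of -0.73 against control, and Smtn, a contractile protein gene, fell by 1.84 on the log2 scale (SE 0.36, adjusted p = 0.0461, edgeR). Smtn was called in 15 of 19 alternative fits, and not without JZL184 library 2 (adjusted p = 0.105, edgeR), JZL184 library 4 (0.0809), control library 3 (0.177) or the joined control sample (0.529). For the 4 genes of the interstitial cells of Cajal, the pacemaker cells beside the plexus, the medians were 1.08, -0.34 and 0.69, edgeR called 0, and the sums were 4.60 to 5.90, 6.90 to 17.8 and 8.03 to 17.4 FPKM. Enteroendocrine cells share Uchl1, Tac1 and secretory genes with neurons, and the summed FPKM of 10 of their genes was 901 to 1087, 552 to 956 and 385 to 1592. Leukocyte genes summed to 1066 to 1287, 746 to 2256 and 260 to 1256, a sum in which Lyz2 (up to 2191) weighs most. Gene by gene, their median log2 fold changes were 0.74, 0.32 and 0.24, with 4, 3 and 3 of 6 positive. Of the 6, edgeR called 0, and DESeq2 called 2 higher in each comparison with control (1.14% and 11.7% of all genes). S100a8 was at 0 to 0.63 FPKM in the control libraries, 3.56 to 39.55 in the SAP libraries and 6.33 to 148.71 in the JZL184 libraries. S100a9 was at 0.36 to 0.72, 2.49 to 38.51 and 5.56 to 95.60. Fat genes summed to 87.6 to 151, 70.2 to 237 and 93.8 to 156, and of the exocrine pancreas genes with FPKM, Prss1, Cpa1 and Ctrb1 were at or below 0.17 in every library and Cela1, an elastase gene, was at 4.19 to 12.04. The part of these lists in the members' differences was not tested.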

How the data were processed

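Stranded mRNA libraries were made from rat ileum, 11 in all. The authors aligned the reads with HISAT2 to mRatBN7.2 and deposited raw read counts per gene. The authors also deposited FPKM, scaled for gene length and library size, with 2 decimals. The sources used here name neither the counting tool nor the annotation. Groups follow the labels. The 9 members and all gene lists were chosen with earlier results of these data known. Control libraries 1 and 2 were joined.

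Read counts were compared with edgeR 4.0.16 (quasi-likelihood test, TMM, default filter with minimum count 10) in R 4.3.3, separately for each pair of groups. The call needed p below 0.05 after Benjamini-Hochberg adjustment over all genes tested, with a fold change above 2 or below 0.5. FPKM of single members were compared by 27 two-sided exact permutation tests after adding 1 and taking log2. Alternatives were DESeq2 1.42.0, limma-voom (limma 3.58.1), other scaling, filters, pseudocounts, designs and samples. The scripts were tested on simulated data. Tables and plots were made in Python 3.11.15. All members were named, and from each other list any called gene and the 2 genes with the smallest p in each JZL184 comparison could be named. The 5 genes most like the neuronal and the glial members by Pearson correlation were also named. Libraries held 26341299 to 33847135 reads on genes. No label says that each library is from a separate rat, so p-values measure the spread between libraries. Splicing was not analysed here.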

Additional observations from a re-analysis of the deposited data

How the results depend on the processing

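Of 486 alternative fold changes of single members, 442 kept direction and side of the threshold, 28 moved past it and 16 turned; of 270 permutation differences these numbers were 247, 6 and 17.

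The number of all genes called in SAP against control was 0, and 203 with DESeq2, 14 with limma-voom, 14 without the filter on low counts, 4 with all 3 groups in 1 fit, 33 with separate control libraries, 1469 with DESeq2 on these, 74 without SAP libraries 1 and 2, 5859 without SAP libraries 3 and 4, and 0 to 3 with a library left out. JZL184 against SAP went from 0 to 1283 (DESeq2), 699 (limma-voom), 27 (no filter), 207 (all 3 groups), 12 (gene length offsets), 2912 (without SAP libraries 3 and 4) and 0 to 655 with a library left out, the highest without JZL184 library 1. JZL184 against control went from 343 to 1956 (DESeq2), 2906 (limma-voom), 929 (no filter), 2800 (separate controls), 3498 (DESeq2 on these) and 0 to 1867 with a library left out, the lowest without the joined control sample. Members called went from 0 to 1 (DESeq2), 2 (DESeq2, separate controls), 1 (without SAP libraries 1 and 2) and 5 (without 3 and 4) in SAP against control, to 1 (without SAP libraries 3 and 4) in JZL184 against SAP, and in JZL184 against control to 2 (DESeq2), 2 (limma-voom), 1 (no filter), 2 (separate controls), 3 (DESeq2, separate controls) and 0 to 2 with a library left out. With a library left out, 0 members were called in the other comparisons. The cause was not tested. Offsets for gene length moved the median log2 fold change of all genes from 0.06 to -0.19 in SAP against control and from -0.05 to 0.15 in JZL184 against SAP.

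The replicate numbers did not pair the libraries (correlations of deviations -0.304 to -0.152, -0.449 to 0.123 and -0.095 to 0.111 in the 3 comparisons). With the number as a block and separate controls, 1 gene (3 with length offsets too) was called in SAP against control, and 1488 (1303) in JZL184 against control, of which 2 (2) were members, and S100b turned to 0.11 (0.14).

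Fold changes that turned in SAP against control were those of Uchl1 (0.01), Vip (-0.11) and S100b (0.066) without SAP libraries 1 and 2, and Vip without control libraries 1 and 2 (-0.086) or with single libraries left out (-0.19 to 0.43, negative without SAP library 1). In JZL184 against SAP they were Elavl4 without SAP libraries 3 and 4 (-0.43) or with single libraries left out (-0.11 to 0.39, negative without SAP library 3 or 4), and S100b with limma-voom (-0.12), without SAP libraries 1 and 2 (-0.16), and with single libraries left out (-0.008 to 0.27, negative without SAP library 2 or JZL184 library 1). In JZL184 against control S100b gave -0.245 to 0.058 with single libraries left out, and was positive without JZL184 library 4 or control library 3. Differences of mean log2(FPKM + 1) that turned in SAP against control were Vip (-0.0397 to 0.499 with single libraries left out) and S100b (-0.146 to 0.144, and 0.0232 with separate controls). In JZL184 against SAP they were Elavl4 (-0.0643 to 0.0439, and 0.0294 with a pseudocount of 0.1), Tac1 (-0.107 to 0.450) and S100b (-0.164 to 0.103), and in JZL184 against control S100b (-0.206 to 0.106). The exact permutation p reached 0.0286, the smallest possible, with separate controls for Snap25 in SAP against control and for Elavl4, Vip and Gfap in JZL184 against control. Separate controls count the near copies, control libraries 1 and 2, as 2 samples, and the smallest exact permutation p with the joined control was 0.0667. In JZL184 against SAP it also reached 0.0286 for Vip without SAP library 1 and Gfap without SAP library 2.

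With 2 control samples, an exact permutation test against control could not pass the threshold, and Nos1 and Elavl4 were limited by their read counts.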
